A study of Mus musculus with 3 samples.

Results

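The genes described here are 46 mitotic genes and sister chromatid regulators, chosen by name for their roles: the kinases and cyclins of mitotic entry, kinetochore and checkpoint proteins, the chromosomal passenger complex, spindle and cytokinesis proteins, partners of the anaphase-promoting complex, regulators of sister chromatid cohesion, and condensin I with other chromosome proteins. Probes were assigned to them through the RefSeq transcript named for each probe in the scanner files. By this rule 43 of the 46 had a probe and all 43 were tested, among 18751 genes or transcripts tested in all. Mki67, Cenpf and Ncapg had no matched probe and were not analysed here.

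Each of 3 Agilent 2-colour arrays compared total RNA of 1 culture labelled SA1-null, in Cy3, with total RNA of 1 culture labelled wild type, in Cy5. Both were untreated primary mouse embryonic fibroblasts, the connective tissue cells grown out of an embryo, taken from embryos at E12.5 and grown in DMEM with 10% serum. SA1-null is given with no allele or Cre, and the strain of neither group is given in the labels. The labels call the 3 arrays biological replicates. All dyes ran the same way, so a dye effect and a genotype effect cannot be told apart, and the array number limits the precision of every value below.

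Mitosis is driven by cyclin-dependent kinase activity, which condenses the chromosomes and builds the spindle. Kinetochores then attach each sister chromatid to spindle microtubules, and the spindle checkpoint holds back the anaphase-promoting complex until all are attached. Separase, freed from its inhibitor securin, cuts cohesin, the ring that holds sisters together and of which SA1 is a subunit. Most of these genes are transcribed late in the cell cycle and are low in cells that have stopped dividing.

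Stag1, the gene of SA1, was measured first as a check of the labels, and it went against them. Its log2 ratio, SA1-null channel over wild type channel on the same array, was 3.34, 3.74 and 3.47 on replicates 1, 2 and 3 (mean 3.52 ± 0.21, SD, n = 3, limma adjusted p = 0.0283). In the authors' deposited table, whose values ran as Cy5 over Cy3, the same probe stood at -3.43, -3.84 and -3.43 as given. Whether the dyes or the samples are exchanged in the labels was not settled here. The channels are therefore called by their labels throughout, and every sign below turns over if the labels are exchanged. Of the probes, 60.6% to 66.0% were well above background in Cy3 and 62.0% to 67.0% in Cy5. The brightest probes of all 15 fibroblast markers were well above background in all 6 channels. Replicate 1 was hybridised on 1 slide and replicates 2 and 3 on another, and the extraction software differed between them too. The array-wide ratios spread more widely on replicate 1 (SD 0.84 over all genes) than on replicate 2 (0.33) and replicate 3 (0.54).

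None of the 43 members was called different between the channels labelled SA1-null and wild type by the test over 3 arrays. The members called were 0 of 43 at a limma adjusted p under 0.05, where 0.283% of all genes were called (53 of 18751; 0.0107% higher and 0.272% lower), and the smallest adjusted p among the members was 0.708. With so small a share called over all genes, 0 of 43 does not set the members apart. At an unadjusted p under 0.05 the count was also 0 of 43, against 7.43% of all genes. The means over the arrays had a median of 0.01 on the log2 scale. A p that misses the threshold does not show that the channels were alike, because the members' ratios differed widely between the arrays.

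Array by array, most members shared a sign, and that sign differed between arrays. On replicate 1, 42 of 43 had a log2 ratio above 0, where 46.2% of all genes did, and their median was 0.53 (range -0.82 to 1.08). On replicate 2, 41 of 43 were below 0, where 53.2% of all genes were, with a median of -0.16 (range -0.42 to 0.02). Replicate 3 was divided, with 27 of 43 below 0, where 53.1% of all genes were, a median of -0.27 and the widest range (-1.47 to 0.98). Above 0 on replicate 1 and below 0 on both others were 25 of 43 members, against 10.6% of all genes. The same sign on all 3 arrays was seen for Racgap1 alone above 0 (13.2% of all genes) and for Pttg1 alone below 0 (19.0% of all genes). The sign on replicate 1 depends on the centring: with each array centred on its median in place of the loess curve, the members' median there was -0.09, with 15 above 0, and that of all genes was -0.54. Relative to all genes the members' median on replicates 1, 2 and 3 was 0.57, -0.14 and -0.24 with loess. With median centring it was 0.45, -0.27 and -0.27. Replicate 1 was thus the highest under both, while replicates 2 and 3 were level with median centring.

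**Figure D1:**
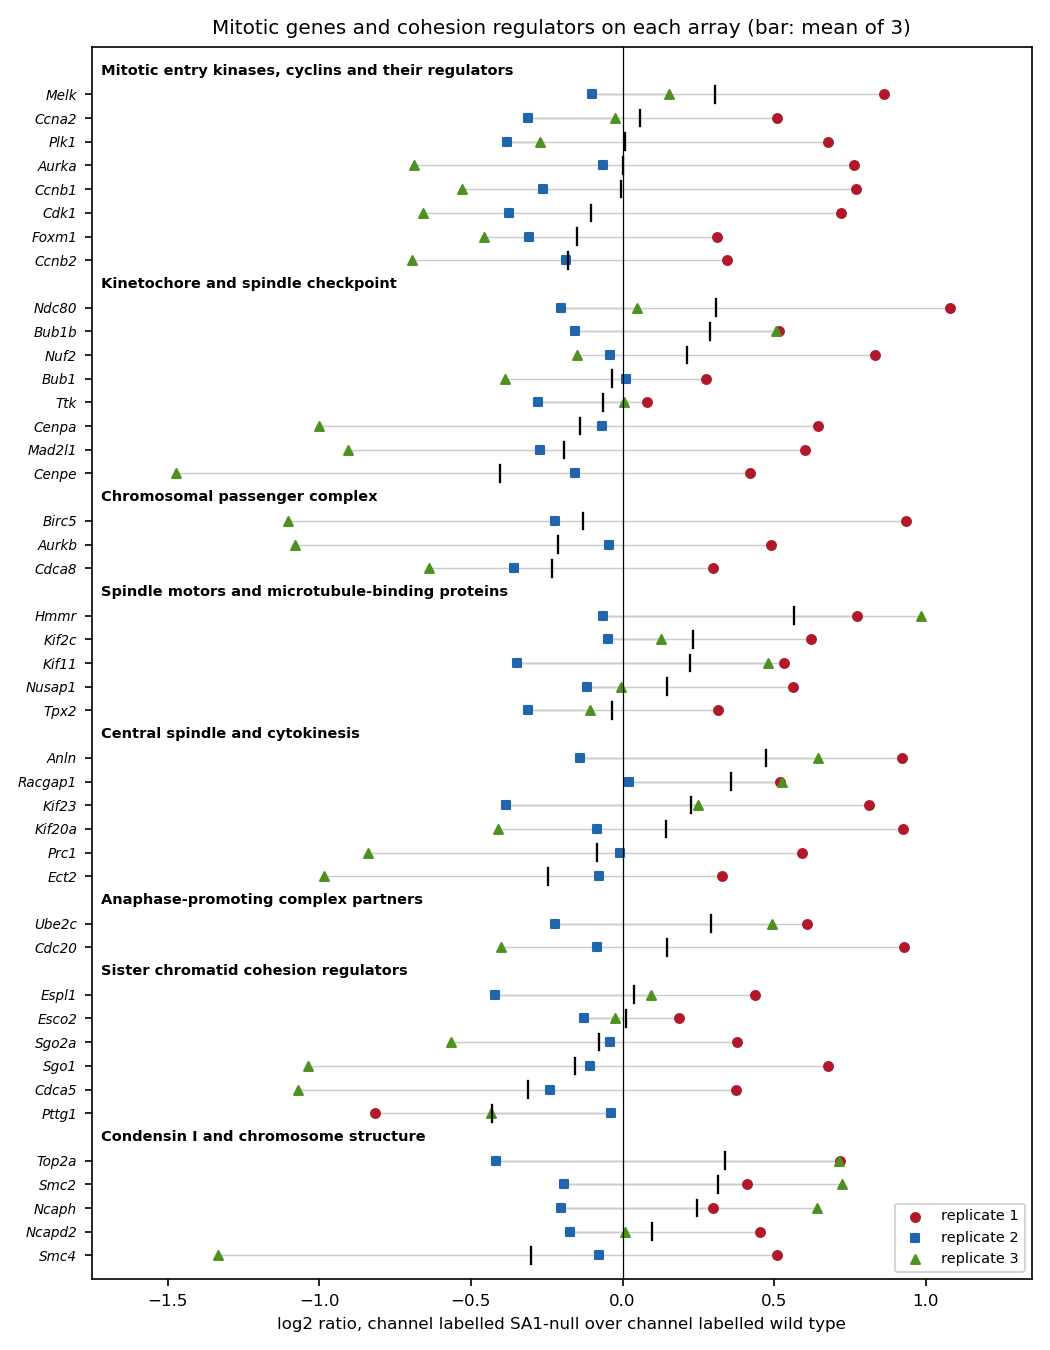
Log2 ratio, SA1-null channel over wild type channel (x axis), for each of the 43 members (rows, grouped by role), with 1 symbol per array and a bar at the mean of 3. The circles of replicate 1 lie right of 0 for 42 of 43 members, Pttg1 excepted, and with median centring 15 would, while the squares of replicate 2 lie left of 0 for 41 of 43.

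The promoters of the members with the highest ratios on replicate 1 (Ndc80, Birc5, Cdc20 and Anln, leaving out Kif20a) and of those with the lowest (Ttk and Pttg1) are shown because many late cell cycle genes carry a cell cycle homology region, or CHR, and CCAAT boxes near their start. Each is the RefSeq window on GRCm38.p6 from 250 bases before to 50 bases after the start of the gene, written 5′ to 3′ on the gene's strand. The windows are chr17:71526808-71527107 on the minus strand for Ndc80, chr11:117848987-117849286 on the plus strand for Birc5, chr4:118437294-118437593 on the minus strand for Cdc20, chr9:22389157-22389456 on the minus strand for Anln, chr9:83834439-83834738 on the plus strand for Ttk and chr11:43425932-43426231 on the minus strand for Pttg1. Capitals mark the letters TTTGAA (CHR) and CCAAT on either strand.
Ndc80: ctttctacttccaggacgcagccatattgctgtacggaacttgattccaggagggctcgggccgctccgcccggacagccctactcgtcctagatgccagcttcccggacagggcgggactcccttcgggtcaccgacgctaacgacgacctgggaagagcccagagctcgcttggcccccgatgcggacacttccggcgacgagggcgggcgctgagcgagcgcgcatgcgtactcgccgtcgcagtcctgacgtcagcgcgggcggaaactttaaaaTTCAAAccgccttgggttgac
Birc5: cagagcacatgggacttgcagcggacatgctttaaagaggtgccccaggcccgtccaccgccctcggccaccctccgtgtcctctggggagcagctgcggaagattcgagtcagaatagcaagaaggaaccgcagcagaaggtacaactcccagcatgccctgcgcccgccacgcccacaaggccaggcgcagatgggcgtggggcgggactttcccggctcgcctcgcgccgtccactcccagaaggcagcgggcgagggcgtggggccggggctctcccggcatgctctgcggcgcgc
Cdc20: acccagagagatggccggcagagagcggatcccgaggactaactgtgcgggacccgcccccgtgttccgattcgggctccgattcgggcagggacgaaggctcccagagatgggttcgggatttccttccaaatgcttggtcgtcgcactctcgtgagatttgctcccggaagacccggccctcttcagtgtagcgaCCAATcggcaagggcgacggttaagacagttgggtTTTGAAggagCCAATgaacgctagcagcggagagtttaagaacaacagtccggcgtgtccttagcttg
Anln: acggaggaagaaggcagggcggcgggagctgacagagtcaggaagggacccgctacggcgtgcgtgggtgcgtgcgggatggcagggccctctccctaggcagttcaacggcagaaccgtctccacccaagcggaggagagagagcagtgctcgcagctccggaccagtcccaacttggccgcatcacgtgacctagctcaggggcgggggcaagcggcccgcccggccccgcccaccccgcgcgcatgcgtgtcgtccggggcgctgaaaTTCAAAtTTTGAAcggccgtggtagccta
Ttk: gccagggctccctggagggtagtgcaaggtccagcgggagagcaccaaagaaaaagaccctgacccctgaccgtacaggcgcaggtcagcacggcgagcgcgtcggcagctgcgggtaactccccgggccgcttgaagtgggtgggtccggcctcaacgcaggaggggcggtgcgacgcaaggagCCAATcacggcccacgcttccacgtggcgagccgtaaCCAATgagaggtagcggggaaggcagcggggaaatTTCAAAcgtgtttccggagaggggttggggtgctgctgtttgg
Pttg1: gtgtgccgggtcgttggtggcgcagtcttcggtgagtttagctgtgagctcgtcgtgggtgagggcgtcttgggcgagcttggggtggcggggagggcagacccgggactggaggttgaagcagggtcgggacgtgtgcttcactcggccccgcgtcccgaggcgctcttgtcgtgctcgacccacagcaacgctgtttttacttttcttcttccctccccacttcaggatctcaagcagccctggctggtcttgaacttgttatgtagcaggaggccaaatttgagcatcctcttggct
Ndc80 had 1 CHR match and Anln 2, side by side in opposite directions, with no CCAAT in either. Cdc20 and Ttk had 1 CHR match and 2 CCAAT matches each, at opposite ends of the order on replicate 1. Birc5, among the highest, and Pttg1, the lowest, had neither set of letters in these windows. Over the 42 windows listed for 39 of the 46 members, TTTGAA was present in 69.0% and CCAAT in 73.8%, against 17.9% and 37.4% of all 32851 windows in the table. Both occurred in 59.5% of members' windows and in 6.95% of all, and neither in 16.7% and 51.7%. Each motif was searched on its own on both strands, so matches may share letters, and a match describes the letters only.

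Among the genes of mitotic entry, all 8 were above 0 on replicate 1 (median 0.70), 0 of 8 on replicate 2 (-0.28) and 1 of 8 on replicate 3 (-0.49). With median centring the signs on replicate 1 are open to the shift given above, and this holds for each group that follows. Cdk1, the kinase that triggers mitosis, had log2 ratios of 0.72, -0.38 and -0.66. Ccnb1, cyclin B1, which activates it, had 0.77, -0.26 and -0.53. Ccnb2, cyclin B2, with the brightest probe of the group and its lowest mean, had 0.34, -0.19 and -0.70 (mean -0.18 ± 0.52, SD, n = 3, limma adjusted p = 0.861). Melk, a kinase of proliferating cells, was the one with a positive ratio on replicate 3, at 0.86, -0.10 and 0.15 (mean 0.30 ± 0.50, SD, n = 3, limma adjusted p = 0.748). The others lay between them on the mean: Ccna2 (cyclin A2), Plk1 (which acts at centrosomes, kinetochores and the midbody), Aurka (the centrosomal Aurora kinase) and Foxm1 (a transcription factor of late cell cycle genes) ran from -0.15 to 0.06.

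All 8 kinetochore and checkpoint genes were above 0 on replicate 1 (median 0.56), 1 of 8 on replicate 2 (-0.16) and 3 of 8 on replicate 3 (-0.27). Ndc80, the microtubule-binding subunit whose promoter is shown above, had the highest ratio of any member on replicate 1, with 1.08, -0.20 and 0.05 (mean 0.31 ± 0.68, SD, n = 3, limma adjusted p = 0.792). Nuf2, its partner in the same complex, had 0.83, -0.04 and -0.15. Cenpe, the kinetochore motor, had the lowest ratio of any member on replicate 3, at 0.42, -0.16 and -1.47 (mean -0.40 ± 0.97, SD, n = 3, limma adjusted p = 0.797), a value its 2 dimmer probes did not share. Cenpa, the histone H3 variant of centromeres, was likewise lowest on replicate 3 (mean over the arrays -0.14 ± 0.82, SD, n = 3). The checkpoint genes did not move as a unit on replicate 3. Mad2l1, which encodes Mad2, had 0.60, -0.27 and -0.91, and Bub1b, which encodes BubR1, had 0.51, -0.16 and 0.50. The checkpoint kinase genes Bub1 (0.28, 0.01 and -0.39) and Ttk (0.08, -0.28 and 0.01) had the smallest ratios of the group on replicate 1.

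The 3 genes of the chromosomal passenger complex, which corrects faulty attachments and then acts in cytokinesis, were above 0 on replicate 1 and below 0 on both others. Birc5, or survivin, the brightest member probe, had log2 levels of 13.87, 14.29 and 13.66 in the channels labelled SA1-null of replicates 1, 2 and 3, against 12.93, 14.51 and 14.77 in the channels labelled wild type. The lowest of the 6 was the wild type channel of replicate 1, and the groups overlapped. Its ratios were 0.94, -0.22 and -1.10 (mean -0.13 ± 1.02, SD, n = 3, limma adjusted p = 0.951), the widest spread of any member. Aurkb, the kinase of the complex, had 0.49, -0.04 and -1.08. Cdca8, or borealin, had 0.30, -0.36 and -0.64 (mean -0.23 ± 0.48, SD, n = 3, limma adjusted p = 0.803), the lowest mean of the complex.

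The 5 spindle genes were all above 0 on replicate 1 (median 0.56), 0 of 5 on replicate 2 (-0.12) and 3 of 5 on replicate 3 (0.13). Hmmr, a microtubule-associated protein of spindle poles, had the highest mean of all members, with 0.77, -0.06 and 0.98 (mean 0.56 ± 0.55, SD, n = 3, limma adjusted p = 0.708). Its spots were among the dimmest, with log2 levels of 8.01, 7.55 and 8.79 in the channels labelled SA1-null and 7.24, 7.61 and 7.81 in those labelled wild type. Tpx2, the activator of Aurora A on the spindle and the brightest probe here, had 0.31, -0.31 and -0.11 (mean -0.03 ± 0.32, SD, n = 3, limma adjusted p = 0.970). Between them stood Kif11, the motor that pushes spindle poles apart, with 0.53, -0.35 and 0.48. Kif2c, a microtubule depolymerase, and Nusap1, a microtubule bundler, had means of 0.23 and 0.15.

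All 6 central spindle and cytokinesis genes were above 0 on replicate 1 (median 0.70), 1 of 6 on replicate 2 (-0.08) and 3 of 6 on replicate 3 (-0.08). Anln, or anillin, the scaffold of the contractile ring, had 0.92, -0.14 and 0.64 (mean 0.47 ± 0.55, SD, n = 3, limma adjusted p = 0.712). Ect2, the exchange factor that activates RhoA at the cell equator, had 0.33, -0.08 and -0.98 (mean -0.24 ± 0.67, SD, n = 3, limma adjusted p = 0.836). These are the highest and lowest means of the group, but the other kept probe of Ect2 gave 0.15 on replicate 3 and a mean of 0.10. The partners in centralspindlin were both above 0 on replicate 3: Racgap1 had 0.52, 0.02 and 0.53, and Kif23 had 0.81, -0.39 and 0.25. Kif20a, a motor of the central spindle with the brightest probe of the group, had 0.93, -0.08 and -0.41 (mean 0.14 ± 0.70, SD, n = 3, limma adjusted p = 0.917). Prc1, which bundles central spindle microtubules, had 0.59, -0.01 and -0.84.

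Both partners of the anaphase-promoting complex were above 0 on replicate 1 and below 0 on replicate 2. Cdc20, its activator, had log2 levels of 13.70, 13.83 and 13.72 in the channels labelled SA1-null, against 12.77, 13.91 and 14.12 in those labelled wild type. The SA1-null channels differed little between arrays, and the wild type channel of replicate 1 was the lowest. The ratios of Cdc20 were 0.93, -0.08 and -0.40 (mean 0.15 ± 0.69, SD, n = 3, limma adjusted p = 0.914). Ube2c, its ubiquitin-conjugating enzyme, had 0.61, -0.22 and 0.49 (mean 0.29 ± 0.45, SD, n = 3, limma adjusted p = 0.744).

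The 6 regulators of sister chromatid cohesion included the single exception on replicate 1, where 5 of 6 were above 0 (median 0.37). On replicate 2 they were all below 0 (median -0.12), and on replicate 3 1 of 6 was above 0 (-0.50). Pttg1, or securin, the inhibitor of separase, had log2 levels of 12.72, 12.72 and 12.17 in the channels labelled SA1-null, against 13.53, 12.76 and 12.60 in those labelled wild type. Its highest channel, the wild type channel of replicate 1, is with loess the highest for 30.0% of all genes and for no other member, and each SA1-null channel lay below the wild type channel of its array. The ratios of Pttg1 were -0.82, -0.04 and -0.43 (mean -0.43 ± 0.39, SD, n = 3, limma adjusted p = 0.708), the lowest mean of all members. It had a single probe, so no other probe checks this. Espl1, or separase itself, had 0.44, -0.42 and 0.09 (mean 0.04 ± 0.43, SD, n = 3, limma adjusted p = 0.973). With their brightest probes the protectors of cohesin had their lowest ratios on replicate 3. Sgo1, shugoshin 1, had 0.68, -0.11 and -1.04, and Cdca5, or sororin, had 0.37, -0.24 and -1.07. The other kept probe of Cdca5 gave 0.08 on replicate 3 and a mean of 0.10. Sgo2a, the other shugoshin, had 0.38, -0.04 and -0.57. Esco2, which acetylates cohesin during replication, was the steadiest member, with 0.19, -0.13 and -0.03 (SD 0.16, n = 3). Its probe was also the dimmest that stood for a member, at a mean log2 intensity of 7.72. Whether the low signal narrowed its ratios was not tested.

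Of condensin I and Top2a, all 5 genes measured were above 0 on replicate 1 (median 0.45), 0 of 5 on replicate 2 (-0.19) and 4 of 5 on replicate 3 (0.64). Top2a, topoisomerase II alpha, which untangles sister DNA, had 0.72, -0.42 and 0.71 (mean 0.34 ± 0.66, SD, n = 3, limma adjusted p = 0.763). The other kept probe of Top2a gave -0.02 on replicate 3 and a mean of 0.25. Smc4, a core ATPase of condensin with the brightest probe here, had 0.51, -0.08 and -1.33 (mean -0.30 ± 0.94, SD, n = 3, limma adjusted p = 0.851). Its partner Smc2 had 0.41, -0.19 and 0.72 with its brightest probe, and its 4 probes disagreed in sign on replicate 3. The condensin I subunits Ncaph (0.30, -0.20 and 0.64) and Ncapd2 (0.45, -0.17 and 0.01) were also above 0 there.

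The difference between arrays was then followed to single channels, on log2 levels made comparable between arrays by Aquantile normalization. Of the 43 members, 39 had their lowest level of the 6 channels in the wild type channel of replicate 1 with loess, where 28.1% of all genes did, and 13 with median centring, where 14.2% did. The 4 others with loess were Ect2, Pttg1, Ncapd2 and Top2a. With median centring 18 members were lowest in the SA1-null channel of replicate 1, but that centring also leaves all genes apart between its channels. Relative to all genes, the members' median ratio on replicate 1 was 0.57 with loess and 0.45 with median centring. The wild type channel of that array was thus the lower under both, measured against all genes. The members' median deviation from each gene's own mean over the channels was, with loess, -0.14, 0.09 and 0.07 in the channels labelled SA1-null of replicates 1, 2 and 3, against -0.70, 0.28 and 0.38 in those labelled wild type. With median centring the channels of replicate 1 stood at -0.45 (SA1-null) and -0.42 (wild type), where all genes stood at -0.30 and 0.22. With the processed signals of the scanner files and quantile normalization, 40 of 43 were lowest in the wild type channel of replicate 1. Both of these alternatives were chosen after seeing the data. In bulk RNA, fewer cells in mitosis and less of these RNAs per cell cannot be told apart.

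**Figure D2:**
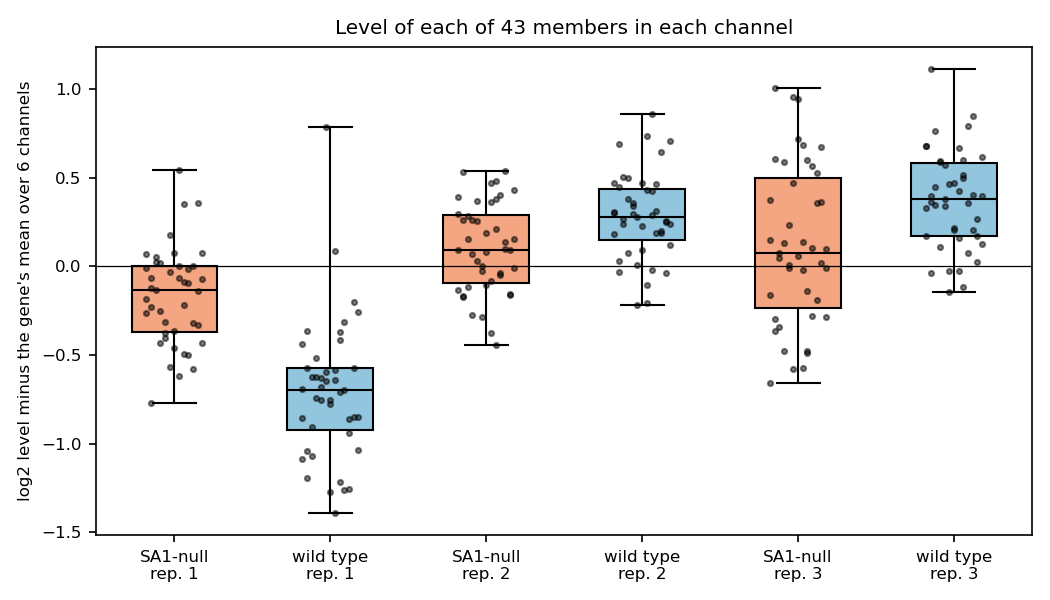
Log2 level of each of the 43 members minus that gene's mean over the 6 channels (y axis), by channel (x axis, SA1-null left of wild type for each replicate). Dots are genes, boxes span the quartiles with the median, and whiskers reach the lowest and highest gene; with loess the wild type channel of replicate 1 has a median of -0.70 (-0.42 with median centring), and its single gene far above 0 is Pttg1.

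The slides were also contrasted, with earlier knowledge that replicate 1 differed, so this contrast describes the size of that difference and is no independent evidence for it. Replicate 1, on slide 1, minus replicates 2 and 3, on slide 2, had a median of 0.79 over the members (range -0.58 to 1.60), and 42 of 43 were above 0. At a limma adjusted p under 0.05, 0 of 43 were called, where 4.88% of all genes were (1.52% higher and 3.36% lower). At an unadjusted p under 0.05 there were 14 of 43, against 17.1% of all genes. The smallest adjusted p belonged to Cdk1 (difference 1.24, SE 0.34, limma adjusted p = 0.110) and to Birc5 (1.60, SE 0.44, limma adjusted p = 0.112). In the authors' deposited values the same fit called 10 of 43 higher on slide 1, where 3.46% of all genes were: Aurka, Birc5, Ccnb1, Cdc20, Cdk1, Cenpa, Kif20a, Mad2l1, Ndc80 and Sgo1, with differences of 1.27 to 1.68. Birc5 alone was called with the processed signals (1.63, limma adjusted p = 0.0298; 4.37% of all genes higher) and with a normexp offset of 0 (1.64, limma adjusted p = 0.0135; 3.51%). Slide 1 is a single array, assumed to vary like replicates 2 and 3, from which the residual spread comes. Slide, software version, culture pair and the presence of Y chromosome transcripts cannot be told apart in this contrast.

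Within slide 2, replicates 2 and 3 gave a median log2 ratio of -0.21 over the members, with 32 of 43 below 0. The members called were 0 of 43, where 1.52% of all genes were called, and 6 of 43 had an unadjusted limma p under 0.05, where 8.04% of all genes did. Without replicate 2 the median was 0.12, with 3 of 43 at that unadjusted p (6.88% of all genes). Without replicate 3 it was 0.17, with 0 of 43 (3.95% of all genes). With loess, replicate 1 thus decided the sign of the median. With median centring the members' medians were below 0 on every array, at -0.09, -0.62 and -0.31 on replicates 1, 2 and 3. Those of all genes were also below 0, at -0.54, -0.35 and -0.04. Relative to all genes the members stood at 0.45, -0.27 and -0.27, so replicate 1 still had the opposite sign.

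Other gene lists, chosen with earlier results of these data known, were set beside the members. The 61 other mitotic genes measured, of 69 listed, had medians of 0.36, -0.13 and -0.21 on replicates 1, 2 and 3, and 0 were called. The 4 with the smallest p were Hmgb2, a chromatin protein (mean -0.45 ± 0.36), Incenp, the scaffold of the passenger complex (-0.55 ± 0.58), the kinesin gene Kif18b (-0.27 ± 0.04) and the kinase gene Pbk (-0.39 ± 0.45; SD, n = 3 each). Genes of DNA replication (44 of 48 measured, 0 called) had medians of 0.32, -0.16 and -0.44. Both lists turn sign on replicate 1 with median centring, to -0.24 and -0.38, and remain above all genes there by 0.30 and 0.16. In the wild type channel of replicate 1, 41 of 61 other mitotic genes and 36 of 44 replication genes were at their lowest with loess, where 28.1% of all genes were. With median centring 13 and 10 were, where 14.2% of all genes were. Among the replication genes, Pcna, the sliding clamp, had a mean of -0.55 ± 0.41, Gmnn, the licensing inhibitor geminin, -0.63 ± 0.57, and Cdc45, of the replicative helicase, 0.31 ± 0.29 (SD, n = 3 each). Prim2, a primase subunit, was the 1 replication gene called between slides (3.12, limma adjusted p = 0.00916).

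CDK inhibitors and growth arrest genes lay below all genes on replicate 1, by 0.59 with loess and 0.78 with median centring. Their medians were -0.63, 0.15 and 0.27 on replicates 1, 2 and 3 (15 of 15 measured, 0 called). With median centring the value on replicate 2 was -0.37, where all genes stood at -0.35. With loess their median deviation was 0.64 in the SA1-null channel of replicate 1 and 0.68 in its wild type channel. In that wild type channel 8 of the 15 were at their highest, where 30.0% of all genes were. The 4 with the smallest p were the growth arrest-specific genes Gas1 (0.19, 0.75 and 0.88), Gas2 (2.68, 0.33 and 0.80) and Gas6 (-0.82, 0.10 and -0.66), and Cdkn2d, the CDK inhibitor p19 (-0.03, -0.01 and -0.79). Gas2 alone of the list was called between slides (2.11, limma adjusted p = 0.0251). Cdkn1a, the CDK inhibitor p21, chosen after its values were seen, had log2 levels of 13.07, 13.41 and 14.31 in the channels labelled SA1-null, against 14.26, 13.22 and 13.18 in those labelled wild type. Its wild type channel was thus the higher on replicate 1 and the lower on replicates 2 and 3.

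Transcriptional regulators of the cell cycle and the rest of cohesin had medians close to 0 on each array with loess. The E2F, MuvB and RB list (18 of 19 measured, 0 called) had medians of -0.10, -0.08 and 0.04. Its 4 smallest p belonged to E2f2 (mean -1.05 ± 0.32, limma adjusted p = 0.226), Tfdp2 (-0.45 ± 0.15), Tfdp1 (0.59 ± 0.41) and E2f1 (-0.39 ± 0.27; SD, n = 3 each), which encode E2F factors and their dimerization partners. Rb1, the retinoblastoma gene, was the 1 gene of this list called between slides (-2.08, limma adjusted p = 0.0411). Of condensin II and the cohesin ring, 11 of 15 genes were measured, with medians of 0.02, 0.03 and 0.03. Stag1 was the 1 gene called, and the next were Ncapg2 of condensin II (-0.31 ± 0.38), Rad21, the cohesin subunit that separase cuts (-0.25 ± 0.29), and Mau2 of the cohesin loader (0.37 ± 0.70; SD, n = 3 each). With median centring these medians moved to -0.78 and -0.69 on replicate 1, against -0.54 for all genes.

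**Figure D3:**
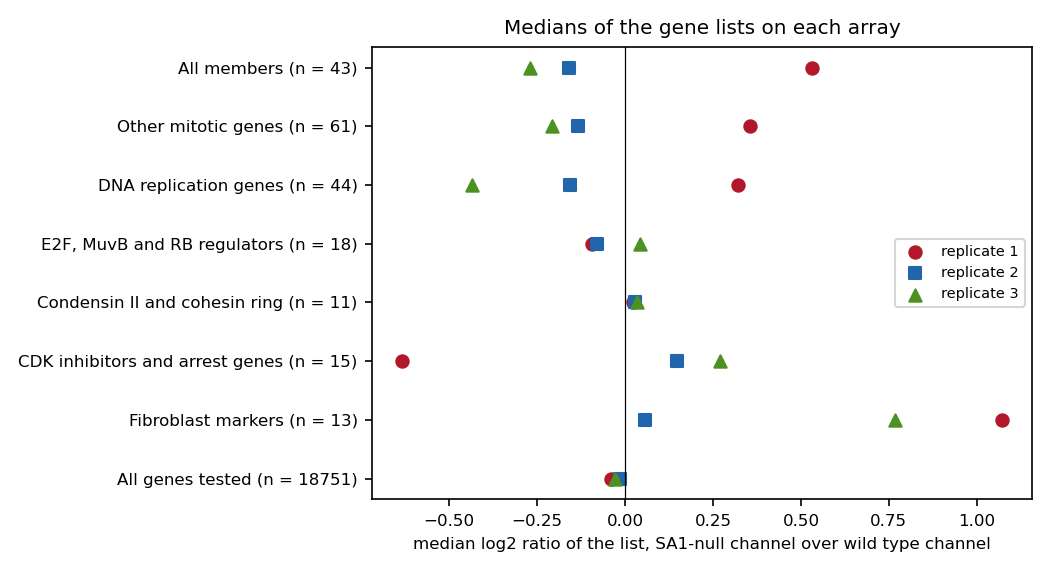
Median log2 ratio, SA1-null channel over wild type channel (x axis), for each gene list (rows, with the number of genes measured), 1 symbol per array. Members, other mitotic genes and replication genes stand at 0.53, 0.36 and 0.32 on replicate 1 and arrest genes at -0.63; with median centring these values are -0.09, -0.24, -0.38 and -1.33, and all genes stand at -0.54.

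Macrophage and blood cell markers were higher in the wild type channel than in the SA1-null channel of every array, and most of all in that of replicate 1. The macrophage and blood cell list (20 of 21 measured) was summed on the linear scale of the levels to 36800.6, 10164 and 8268.05 in the channels labelled SA1-null of replicates 1, 2 and 3, against 402381, 67889 and 62978.6 in those labelled wild type. The wild type channel of replicate 1 was the highest for 19 of 20 markers, and with loess for 30.0% of all genes. All 20 were well above background in every wild type channel and in the SA1-null channel of replicate 1, and Itgam alone was not in the SA1-null channels of replicates 2 and 3. Their median log2 ratios were -3.29, -2.50 and -2.61, all of one sign, and 11 of 20 were called lower over the 3 arrays. Fibroblast markers (13 of 15 passed the filters, 0 called) had medians of 1.07, 0.06 and 0.77 with loess and 0.22, -0.40 and 0.40 with median centring. All genes stood at -0.54, -0.35 and -0.04 with median centring. Between slides Lum and Dcn were called higher and Thy1 lower, and Itgam and Mrc1 of the macrophage list were also called lower. Probes of Y chromosome genes also divided the arrays. The 5 probes of 4 such genes were well above background in both channels of replicate 1 (5 of 5), and in 0 of 5 in either channel of replicates 2 and 3. The part of these differences in the members' pattern was not tested.

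On replicate 3 the ratio went with the brightness of the probe. The 21 brighter members had a median log2 ratio of -0.64 there, with 3 above 0, and the 22 dimmer had 0.07, with 13 above 0. Across the 43 members the correlation of ratio and mean log2 intensity was -0.57 on replicate 3, against 0.03 on replicate 1 and 0.04 on replicate 2. Over all genes on replicate 3 it was 0.02. Loess removes the trend of ratio with intensity over each array, so this value is held low in advance and is no independent contrast. With the processed signals the members' correlations on replicates 1, 2 and 3 were -0.27, -0.21 and -0.61, and with an offset of 0 they were -0.10, 0.10 and -0.58. Over the 59 member probes with the main signals they were -0.05, -0.23 and -0.53. The value on replicate 3 was thus the lowest in each setting, and the sign on replicates 1 and 2 depended on the setting. These are descriptions across genes that share each hybridisation, and genes are not independent replicates.

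Several members had more than 1 kept probe, and these probes did not always give the same sign. Of 12 such members, 0 had probes of opposite sign on replicate 1, 4 on replicate 2 (Anln, Cdca5, Ect2 and Smc2) and 5 on replicate 3 (Cdca5, Cenpe, Ect2, Smc2 and Top2a). The means had opposite signs for 5, namely Cdca5, Cdca8, Cenpe, Ect2 and Sgo2a. The probes of a member lay a median of 0.30, 0.18 and 0.47 log2 units apart on the 3 arrays. Cenpe showed the widest gap: its probes, from bright to dim, gave -1.47, 0.08 and -0.11 on replicate 3. The brightest probe had the lower ratio than the dimmest in 8 of 12 members on replicate 3, against 6 on replicate 1 and 10 on replicate 2. Smc2 did not follow brightness: its 4 probes gave 0.72, -0.48, -0.27 and 0.90 on replicate 3 from bright to dim, but 0.41, 0.85, 0.92 and 0.37 on replicate 1. For the 12 members, all probes were above 0 on replicate 1, and the replicate 3 sign of the 5 named depends on the probe.

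**Figure D4:**
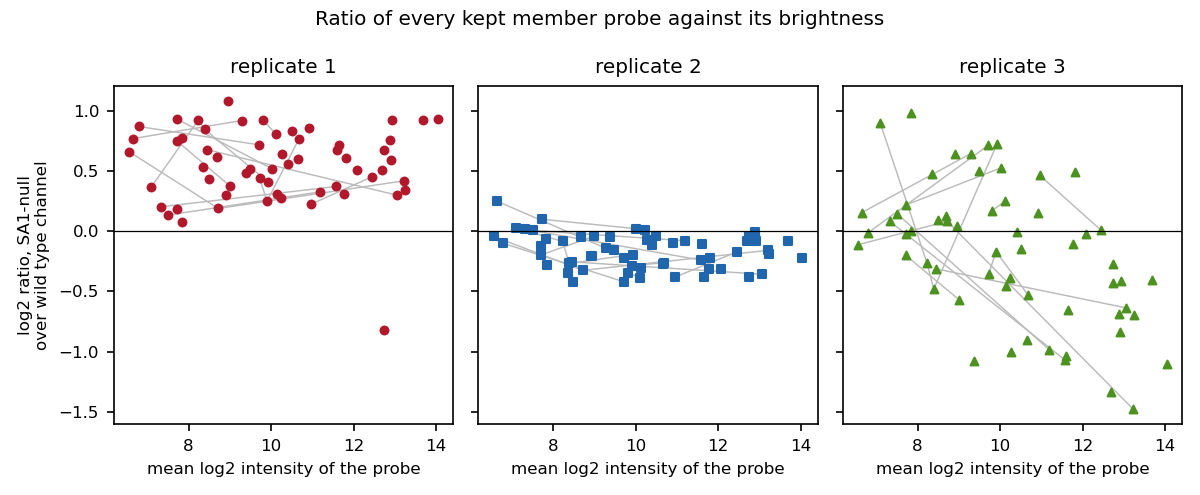
Log2 ratio, SA1-null channel over wild type channel (y axis), against the mean log2 intensity of the probe (x axis) for the 59 kept member probes, 1 panel per array, with grey lines joining probes of the same gene. On replicate 3 the correlation over probes is -0.53, and on replicate 1 every probe but that of Pttg1 lies above 0 with loess, where median centring puts the members' median at -0.09.

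The order of the members was also compared between arrays. Across the 43 members the correlation between replicates 1 and 2 was -0.06, between replicates 1 and 3 it was 0.10 and between replicates 2 and 3 it was -0.18. Over all genes the same correlations were 0.37, 0.27 and 0.47. The points share the hybridisations, and no p is given for them.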

How the data were processed

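Total RNA of primary mouse embryonic fibroblasts was hybridised on 3 Agilent 2-colour arrays. The scanner files, made with Feature Extraction 10.1.1.1 (replicate 1) and 10.7.3.1 (replicates 2 and 3) per the file headers, hold spot and background intensity values per dye, with a log10 ratio of processed Cy5 to Cy3 signals. The deposited table of the series holds log2 values per probe, made with limma per the submitters' processing notes. Its correction and centring are not recorded in the labels or headers used here. Turned to Cy3 over Cy5, they correlated at 0.991, 0.986 and 0.997 with the ratios computed here, and their column medians as given were -0.02, -0.02 and -0.01.

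Median spot signals were corrected by normexp (offset 50) and normalized by loess with limma 3.58.1 in R 4.3.3. Spots of controls and spots with outlier flags (116, 125 and 207) had weight 0 and were left out, and 0 spots were saturated. Of 41174 probes, 24451 were well above background in at least 1 channel on all 3 arrays, and 24353 of these had no flagged value. The brightest probe stood for a gene. Probes were named through RefSeq transcripts (table of GRCm38.p6): 23374 matched 16535 genes, and 6620 of the 18751 entries tested kept a transcript accession. Ratios are log2 of Cy3 (labelled SA1-null) over Cy5 (labelled wild type).

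Mean ratios were tested against 0, and slides against each other, with limma's lmFit and eBayes and Benjamini-Hochberg adjustment over all entries at 0.05, after tests on simulated data. P-values measure the spread between 3 arrays. Channel levels used loess and Aquantile, with no test. Members and lists were chosen with earlier results of these data known. All members are named. Values of every array are required for Stag1 and, in each role group, for the highest and lowest mean and the brightest probe; other lists, apart from cell markers, show the 4 smallest p, of which 1 is not reported here. Alternatives are given in the closing section.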

Additional observations from a re-analysis of the deposited data

How the results depend on the processing

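No paired analysis was possible because each array is itself the pair of 1 SA1-null and 1 wild type culture, and the ratio within it already uses that pairing. Under every alternative run, 0 of 43 members were called between the channels labelled SA1-null and wild type, while the calls over all genes ran from 0 (no filter on dim probes, trended and robust variances, without replicate 2 or 3) to 1806 (slide as a fixed term), against 53. Their median stayed between -0.38 and 0.17, and leaving out 1 array gave -0.21 to 0.17. The value of -0.38 came with median centring, where the median over all genes was -0.29. Slide 1 minus slide 2 called 1 member with an offset of 0, 1 with processed signals and 10 with the deposited values, with medians of 0.95 with processed signals, 0.90 with deposited values, 0.69 with the median over probes and 0.41 with median centring, where all genes stood at -0.34. Leaving out replicate 2 or 3 gave 0.68 to 0.77. The median on replicate 2 was -0.62 with median centring, where all genes stood at -0.35.

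Several means changed sign, and none of these passed the test. With median centring Melk was -0.0825, Kif20a -0.37, Ube2c -0.15, Cdc20 -0.42 and Espl1 -0.19. The median of the means over all genes was -0.29 in that setting, so these signs include a shift of all genes. Melk, Ube2c and Espl1 stayed above that median. With array weights, which were 0.481 for replicate 1 and 0.671 for replicate 3 and highest for replicate 2, Ndc80 was -0.0193, Kif20a -0.0215, Ube2c -0.0174, Cdc20 -0.0191, Espl1 -0.24 and Top2a -0.11. The deposited values gave Tpx2 0.0139, the median over probes Cenpe 0.0498, and the slide term Birc5 0.14 and Tpx2 0.0522. Leaving out 1 array gave -0.44 to 0.0789 for Ccnb2, -0.0781 to 0.56 for Ndc80, -0.82 to 0.13 for Cenpe, -0.66 to 0.36 for Birc5, -0.21 to 0.10 for Tpx2, -0.53 to 0.13 for Ect2, -0.25 to 0.42 for Kif20a, -0.24 to 0.42 for Cdc20, -0.16 to 0.26 for Espl1 and -0.71 to 0.22 for Smc4, with the lowest of each without replicate 1. Stag1 held its sign but missed the threshold with no filter (3.52, limma adjusted p = 0.0997), trended and robust variances (0.790), without replicate 2 (3.40, limma adjusted p = 0.237) and without replicate 3 (3.54). The causes were not tested. The wild type channel of replicate 1 was the lowest for 39 members, for 40 with processed signals and quantile normalization and for 13 with median centring. All 43 representative probes were well above background in both channels of all arrays. The size of a dim probe's ratio could still depend on the correction. The mean of Hmmr, among the dimmest, was 0.56 in the main setting, 0.71 with an offset of 0 and 0.91 with processed signals.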
